A study of Mus musculus with 6 samples.

Results

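The interleukin-1 (IL-1) family and NF-kappaB genes described here are Il1a, Il1b, Il1rn, Il1r1, Il33, Tnf, Nfkbia, Tnfaip3, Rela and Nfkb1, 10 of the 44788 genes of the count table, taken by their symbols. They were measured in the uterine lining (endometrium) of outbred ICR mice with tamoxifen-induced adenomyosis, in which glands and stroma of the lining grow into the muscle of the uterus. The agonist group (3 libraries) had been injected into the abdomen with the GnRH agonist Decapetyl at 1.5 µg per 100 g body weight per day, on days 3 to 9 of estrus. The no-agonist group (3 libraries) had been given the solvent. Both groups had been given oral tamoxifen (2.7 µmol/kg) as newborns on days 2 to 5, were divided after 75 days into 8 mice each, were mated 4 weeks after treatment and were sampled on day 4 of pregnancy. All mice therefore carried the tamoxifen exposure, and no untreated mice were analysed here. The tissue was scraped from the uterus, and how many mice entered each library is not stated, so the p-values reflect only how far the libraries differ from one another, which may be technical.

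IL-1 alpha and IL-1 beta are inflammatory cytokines that bind the receptor IL-1R1. The IL-1 receptor antagonist occupies the same receptor without signalling. Both IL-1 and tumor necrosis factor (TNF) lead to the breakdown of the inhibitor IkappaB-alpha, encoded by Nfkbia, which frees NF-kappaB dimers such as p65 (Rela) with p50 (Nfkb1) to enter the nucleus. NF-kappaB in turn switches on Nfkbia and Tnfaip3, whose products end the signal. In the uterus, IL-1 signalling is known for its part in the dialogue between embryo and endometrium and in inflammation.

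Library totals ranged from 11720958 to 14104266 counts in the agonist group and from 12053447 to 13137470 counts in the no-agonist group, and 3 counts corresponded to 0.204 to 0.276 CPM (a gene's count scaled to a common library total, here with TMM factors). Stromal genes such as Hoxa10 were read in every library (43.9, 96.2 and 109 CPM with the agonist, against 125, 39.3 and 63.9 CPM without it), as was the epithelial gene Epcam. No-agonist library 3 stood apart in muscle content. Its 8 smooth muscle markers summed to 22020 CPM, against 8852 and 9143 CPM in the other no-agonist libraries, while the agonist libraries gave 13260, 3362 and 4078 CPM. The same library held the highest level of 22.4% of the 16581 genes tested, and of 8 of the 10 IL-1 and NF-kappaB genes. Values without it are given where they differ much. Reads of the ribosomal RNA gene Rn18s made up 1.94% of agonist library 1 and 3.31% of no-agonist library 2, against 0.254 to 0.369% of the other 4 libraries. In bulk tissue, fewer cells of a type and less RNA per cell cannot be told apart.

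The receptor gene Il1r1 lay higher with the agonist, and the inhibitor gene Nfkbia lay lower, each with no overlap between the groups. The cytokine genes Il1a, Il1b and Tnf, the antagonist Il1rn and the feedback gene Tnfaip3 were at their highest in a single no-agonist library and overlapped between the groups. Il33, Rela and Nfkb1 had the smallest log2 fold changes beside Tnf, at most 0.44 in size. At an adjusted p of 0.05 (Benjamini-Hochberg, edgeR quasi-likelihood), 0 of the 9 genes tested lay higher and 0 lower, as for all genes (0% higher and 0% lower). Of the 9, 1 lay higher (4.17% of all genes tested) and 2 lay lower (5.09%) at an unadjusted p under 0.05. The groups did not overlap for 1 gene that was higher, Il1r1 (6.94% of all genes), and 2 that were lower, Nfkbia and Nfkb1 (7.61%). Without no-agonist library 2, 5 of the 10 genes lay at an unadjusted p under 0.05 (8.07% of all genes) and 6 did not overlap (23.3%). Both counts include Il1a, which was not tested with all 6 libraries. Il1a entered that test through its 26 and 119 reads in the remaining no-agonist libraries, against 7, 9 and 1 reads with the agonist, so its place there is no added support. Without agonist library 1, 5 did not overlap (29.2% of all genes). DESeq2 called 1 gene higher, Il1r1, and 0 lower (0.87% and 1.56% of the genes it tested), edgeR's likelihood ratio test called the same 1, and limma-voom called 0.

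**Figure D1:**
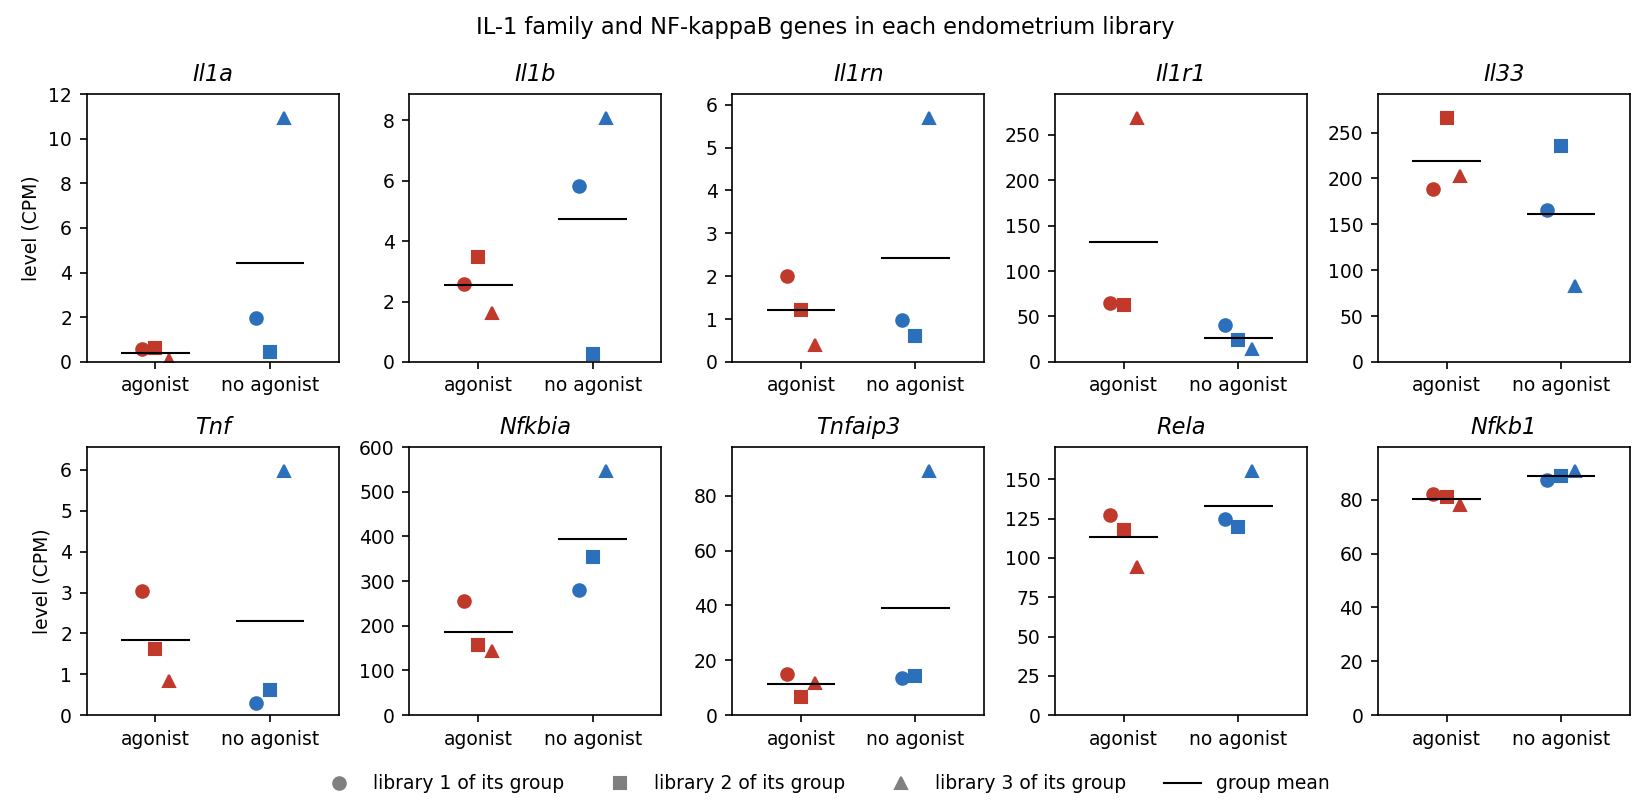
Level of each of the 10 genes in CPM (vertical axis, starting at 0) in the 3 agonist libraries (red, left) and the 3 no-agonist libraries (blue, right), with the symbol giving the library number and the black line the group mean. The triangle of no-agonist library 3 is the highest point for 8 genes and the lowest for Il1r1 and Il33.

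Of the ligands, Il1a (chr2:129299610-129309972, GRCm38, minus strand) encodes IL-1 alpha, a cytokine that is active as a precursor and is stored in epithelial cells. It had 7, 9 and 1 reads in the agonist libraries, against 26, 5 and 119 reads in the no-agonist libraries. In CPM this was 0.562, 0.611 and 0.0769 with the agonist and 1.96, 0.435 and 10.9 without it. A single no-agonist library thus held most of its 167 reads, and the groups overlapped. Il1a had too few reads in too few libraries to enter the test. Without the filter on low counts its log2 fold change (agonist over no agonist) was -3.38 ± 1.02 (SE; adjusted p = 0.287, edgeR quasi-likelihood, and up to 0.846 with 1 library left out).

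Il1b (chr2:129364570-129371139, minus strand) encodes IL-1 beta, which caspase-1 cuts from an inactive precursor, mainly in myeloid cells. It measured 2.57, 3.46 and 1.62 CPM in the agonist libraries, against 5.81, 0.261 and 8.08 CPM in the no-agonist libraries. The no-agonist libraries spanned the lowest and the highest value of all, so the groups overlapped. Its log2 fold change of -0.88 ± 0.93 (SE; adjusted p = 0.835) was smaller than its error, and without no-agonist library 2, the one at 0.261 CPM, it was -1.43 ± 0.48 (SE; adjusted p = 0.580). Without no-agonist library 3 it was -0.25 ± 1.03 (SE). Exons of the noncoding genes Gm14023 and Il1bos lie opposite Il1a and Il1b in the GENCODE annotation, and since the strand setting of the counting is not given in the sources used here, reads within these pairs cannot be told apart. The 11 macrophage and monocyte markers summed to 979.6, 1021 and 502 CPM with the agonist and 1605, 865.9 and 2560 CPM without it, with none at 0 reads in any library. Cd14 made up most of that sum in every library but agonist library 3. The other 10 summed to 385, 504 and 307 CPM with the agonist and 799, 164 and 559 CPM without it, lowest in no-agonist library 2 as Il1b was. The 10 neutrophil markers summed to 16.6 to 19.8 CPM with the agonist and 4.00 to 17.7 CPM without it, and 2 to 5 of them were at 0 reads in each library. The part of these cells in the Il1b reads was not tested.

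The antagonist gene Il1rn (chr2:24336853-24351494, plus strand) measured 2.01, 1.22 and 0.385 CPM in the agonist libraries, against 0.981, 0.609 and 5.69 CPM in the no-agonist libraries. It had its highest level in the same no-agonist library as Il1a and Il1b. Its log2 fold change of -1 ± 0.93 (SE; adjusted p = 0.806) turned to 0.59 ± 0.79 without no-agonist library 3. The direction between the groups therefore rested on that library.

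Il33 (chr19:29925114-29960718, plus strand) encodes IL-33, an alarmin that is kept in the nucleus of epithelial, endothelial and stromal cells and is released on damage. It measured 189, 266 and 203 CPM in the agonist libraries, against 165, 236 and 82.9 CPM in the no-agonist libraries. Unlike Il1a, Il1b and Il1rn it was lowest in no-agonist library 3, and the groups overlapped. Between the groups, the log2 fold change was 0.44 ± 0.37 (SE; adjusted p = 0.776), and 0.14 ± 0.27 without that library. Without no-agonist library 2 it was 0.82 ± 0.36 (SE), and the groups did not overlap. Its receptor gene Il1rl1, which encodes ST2, had 3 to 12 reads per library and was not tested.

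Per kilobase of annotated exon, the scale on which genes can be compared with each other, Il33 was the most abundant of the 10 IL-1 family ligand and antagonist genes in every library. It made up 81.9, 92.3 and 89.8% of their summed level in the agonist libraries, against 83.6, 93.9 and 38.0% in the no-agonist libraries. In no-agonist library 3 the next gene was Il1f6, the older symbol of the epithelial cytokine gene Il36a, with 27.9%. Il1f6 measured 3.77, 0.815 and 0.308 CPM with the agonist, against 1.89, 2.00 and 18.6 CPM without it (log2 fold change -2.20 ± 1.16 SE, adjusted p = 0.622). Leaving out no-agonist library 3 brought the Il1f6 value to -0.26 ± 0.97 (SE). Its relative Il1f9, the older symbol of Il36g, had 5, 7 and 0 reads with the agonist, against 0, 0 and 148 reads without it, and was not tested. The 10 squamous epithelial markers, of which Sprr1b had 0 reads, summed to 646, 311 and 45.9 CPM with the agonist and 665, 243 and 276 CPM without it. Krt5 and Krt14 made up most of the sum in each of the 6 libraries. Krt6a alone measured 5.54, 1.56 and 0 CPM with the agonist and 6.34, 2.00 and 23.1 CPM without it, highest in no-agonist library 3. It was the only 1 of the 6 squamous markers tested that was highest there, while 3 were highest in agonist library 1. The part of these cells in the Il1f6 and Il1f9 levels was not tested. In the other 5 libraries Il33 thus made up at least 81.9% of these messages.

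Tnf (chr17:35199381-35202007, minus strand) encodes TNF, a cytokine of macrophages, mast cells and lymphocytes. It measured 3.05, 1.63 and 0.846 CPM in the agonist libraries, against 0.302, 0.609 and 5.97 CPM in the no-agonist libraries. The agonist values lay between those of no-agonist library 3 and those of the other two. A log2 fold change of -0.31 ± 1.04 (SE; adjusted p = 0.965) turned to 2.01 ± 0.78 (adjusted p = 0.678) without no-agonist library 3. No direction could be given for Tnf, nor for Il1rn.

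The receptor gene Il1r1 (chr1:40225080-40317257, plus strand) encodes the receptor through which both IL-1 cytokines signal. It measured 65.2, 62.2 and 269 CPM in the agonist libraries, against 40.9, 23.9 and 13.7 CPM in the no-agonist libraries. All 3 agonist libraries lay above all 3 others, and agonist library 3 was 4.22-fold above the mean of agonist libraries 1 and 2. The group means were 132 ± 118 and 26.2 ± 13.8 CPM (agonist and no agonist, SD, n = 3 each). The log2 fold change was 2.33 ± 0.66 (SE), a 5.03-fold higher level that did not pass the threshold (adjusted p = 0.351). DESeq2 gave an adjusted p of 0.0102 and the likelihood ratio test 0.0362, and over all alternatives it ranged from 0.0102 to 0.729. Without agonist library 3 the log2 fold change was 1.28 ± 0.43. The 9 NK and T cell markers summed to 23.4, 34.4 and 47.4 CPM with the agonist and 13.0, 8.70 and 20.6 CPM without it, and 5 of the 8 tested were highest in agonist library 3. The 8 endothelial markers summed to 561, 504 and 375 CPM with the agonist and 354, 276 and 319 CPM without it, with 1 highest in agonist library 3. The 10 endometrial stroma markers summed to 2566, 2666 and 2761 CPM with the agonist and 3283, 2269 and 2634 CPM without it, so their groups overlapped. The part of any of these cells in the Il1r1 levels was not tested.

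Of the 14 genes of the IL-1 family list that were tested, 1 was higher (Il1r1) and 1 was lower (Il18rap) at an unadjusted p under 0.05. These were 7.14% each, against 4.17% higher and 5.09% lower of all genes. Il1rap, the co-receptor that IL-1R1 needs to signal, measured 4.73, 6.04 and 9.85 CPM with the agonist, against 7.09, 2.96 and 6.61 CPM without it (log2 fold change 0.31 ± 0.46 SE, adjusted p = 0.894). The decoy receptor Il1r2 measured 2.97, 2.65 and 1.85 CPM, against 3.40, 1.31 and 2.85 CPM (log2 fold change -0.02 ± 0.48, adjusted p = 0.998). Il18r1, which binds IL-18, measured 26.6, 8.56 and 52.6 CPM with the agonist, against 16.4, 13.8 and 16.3 CPM without it, and like Il1r1 was highest in agonist library 3. Il18rap, its signalling partner, went the other way, with 4.49, 2.78 and 0.693 CPM against 5.13, 7.05 and 13.4 CPM (log2 fold change -1.68, adjusted p = 0.514), and its groups did not overlap. Sigirr, a receptor that dampens IL-1 and Toll-like receptor signals, averaged 51.0 ± 9.62 and 66.8 ± 12.3 CPM (agonist and no agonist, SD, n = 3 each; adjusted p = 0.662).

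Nfkbia (chr12:55489410-55492647, minus strand) encodes the inhibitor that holds NF-kappaB in the cytoplasm. It measured 255, 157 and 144 CPM in the agonist libraries, against 279, 354 and 546 CPM in the no-agonist libraries. The groups did not overlap, although agonist library 1 lay close to no-agonist library 1. The log2 fold change was -1.08 ± 0.33 (SE), a 2.12-fold lower level that did not pass the threshold (adjusted p = 0.391, and 0.0785 with DESeq2). Without no-agonist library 3 it was -0.77 ± 0.31. Markers of the epithelium moved the same way: the 10 listed summed to 6818, 5617 and 4535 CPM with the agonist and 8194, 13110 and 10700 CPM without it, and their part in the Nfkbia levels was not tested.

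Tnfaip3 (chr10:19000910-19015657, minus strand) encodes A20, a ubiquitin-editing enzyme that shuts off signalling from the TNF and IL-1 receptors. It measured 15.1, 6.79 and 11.8 CPM in the agonist libraries, against 13.4, 14.4 and 89.0 CPM in the no-agonist libraries. Only no-agonist library 3 lay outside the range of 6.79 to 15.1 CPM. Its log2 fold change of -1.79 ± 0.76 (SE; unadjusted p = 0.0467, adjusted p = 0.530) became -0.31 ± 0.39 without that library.

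The stretches before the starts of Nfkbia and Tnfaip3 are shown because both genes are classic targets of the factor they restrain. They are RefSeq sequences of GRCm38.p6 on the gene's strand and end at the base before a RefSeq start. Capitals mark matches to the 10-base kappaB consensus on either strand. The Nfkbia stretch is chr12:55492648-55492897 and has a match that begins 29 bases before the start. The Tnfaip3 stretch, chr10:19015411-19015547, lies inside the annotated gene, before an internal RefSeq start, and is kept to bases outside annotated exons, with matches that begin 125 and 12 bases before that start. The other Tnfaip3 window in the table, chr10:19011964-19012213, held no match.
Nfkbia: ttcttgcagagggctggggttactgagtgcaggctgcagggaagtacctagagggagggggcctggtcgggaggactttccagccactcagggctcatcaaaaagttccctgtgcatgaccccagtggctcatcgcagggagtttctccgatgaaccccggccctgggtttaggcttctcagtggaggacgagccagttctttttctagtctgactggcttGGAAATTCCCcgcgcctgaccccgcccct
Tnfaip3: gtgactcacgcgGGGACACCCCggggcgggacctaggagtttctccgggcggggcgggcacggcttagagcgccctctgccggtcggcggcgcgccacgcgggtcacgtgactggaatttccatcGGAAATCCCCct

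In all, 9 of the 10 genes had at least 1 promoter window of 250 bases in the RefSeq table. A match stood in 3 of their 14 windows, those of Nfkbia and of internal starts of Tnfaip3 and Il1r1, while 3.90% of all 32851 windows held one. A match is a description of letters, and the levels of Nfkbia and Tnfaip3 beside it are those given above.

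Of the 10 genes, the NF-kappaB subunit genes Rela and Nfkb1 varied least. Rela (chr19:5637483-5648130, plus strand), the transactivating subunit p65, measured 127, 118 and 94.1 CPM in the agonist libraries, against 124, 119.9 and 155 CPM in the no-agonist libraries (log2 fold change -0.24 ± 0.21 SE, adjusted p = 0.788). Nfkb1 (chr3:135584655-135691547, minus strand), the precursor of p50, measured 82.2, 81.0 and 78.2 CPM, against 87.2, 88.7 and 90.6 CPM. The Nfkb1 groups did not overlap, but the log2 fold change of -0.14 ± 0.16 (SE; adjusted p = 0.845) was smaller than its error and became 0.02 ± 0.17 with library totals in place of TMM factors, where the groups overlapped. The standard deviation of log2 CPM over the 6 libraries was 0.08 for Nfkb1 and 0.23 for Rela, against 1.92 for Il1a, 1.53 for Il1b, 1.47 for Il1r1, 1.38 for Tnf, 1.25 for Tnfaip3, 1.21 for Il1rn, 0.72 for Nfkbia and 0.59 for Il33. Il1a, Il1b, Il1rn and Tnf had few reads, so counting error adds to their spread.

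**Figure D2:**
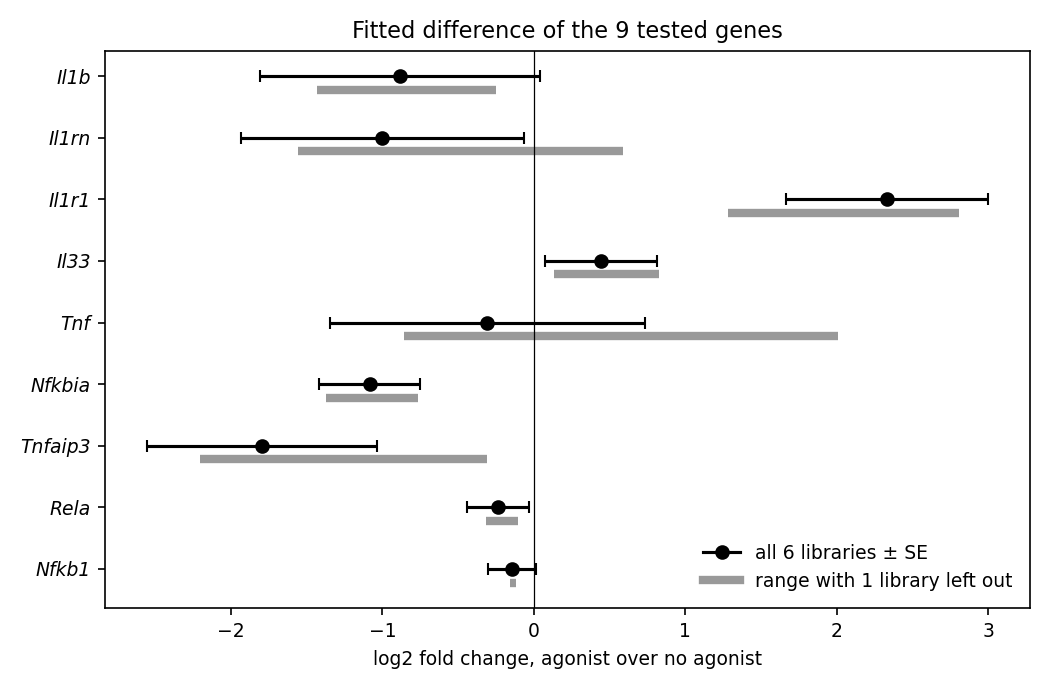
Fitted log2 fold change, agonist over no agonist (horizontal axis), of the 9 genes tested, with black bars for the standard error and grey bars for the range when each library is left out in turn. Il1r1 stays between 1.28 and 2.81 and Nfkbia between -1.37 and -0.77, while the ranges of Il1rn and Tnf cross 0.

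Compared per kilobase of exon in the agonist group, Nfkbia was the most abundant of the 10 genes at 115 ± 37.5 CPM per kb (SD, n = 3, as for the levels that follow). Il33 followed at 75.9 ± 14.3, Rela at 36.8 ± 5.56, Il1r1 at 20.7 ± 18.6 and Nfkb1 at 6.67 ± 0.170 CPM per kb. Tnfaip3, Il1b and Tnf averaged 1.55 ± 0.577, 1.34 ± 0.485 and 1.12 ± 0.681 CPM per kb, which did not differ beyond their spread, and Il1rn and Il1a lay lowest at 0.218 ± 0.147 and 0.211 ± 0.149 CPM per kb. In the no-agonist group the order began with Nfkbia at 244 ± 85.5, Il33 at 55.9 ± 26.5 and Rela at 43.4 ± 6.25 CPM per kb. Il33 and Rela did not differ there beyond their spread. Nfkb1 at 7.37 ± 0.142, Tnfaip3 at 5.39 ± 6.0 and Il1r1 at 4.11 ± 2.16 CPM per kb came next, so Il1r1 stood above Nfkb1 with the agonist and below it without. Il1b, Il1a, Tnf and Il1rn averaged 2.47 ± 2.11, 2.25 ± 2.87, 1.40 ± 1.95 and 0.439 ± 0.512 CPM per kb without the agonist, all within their spread of one another. Exon lengths come from all annotated transcripts, so genes with long alternative exons may be placed too low.

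Genes of the wider pathway were counted in 7 lists that cover the IL-1 family, its processing, the receptor adapters, the TNF arm, the kinases and Rel proteins, the inhibitors, and NF-kappaB target genes. Together they held 120 genes, among them the 10 described above, of which 115 were in the table and 103 were tested. No listed gene passed the adjusted threshold. At an unadjusted p under 0.05, 1 was higher with the agonist and 11 were lower, or 0.971% and 10.7% of those tested, against 4.17% and 5.09% of all genes. Fitted levels were lower for 85 of the 103 (82.5%, against 47.8% of all genes), with a median log2 fold change of -0.24, against 0.02 over all genes. Without no-agonist library 3, 57 of the 103 were lower (55.3%, against 45.4% of all genes), and at an unadjusted p under 0.05 there were 5 higher (3.45% of all genes) and 4 lower (3.58%). With library totals in place of TMM factors, 60 were lower (58.3%, against 31.3% of all genes). The lean toward lower levels with the agonist was thus smaller without that library.

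**Figure D3:**
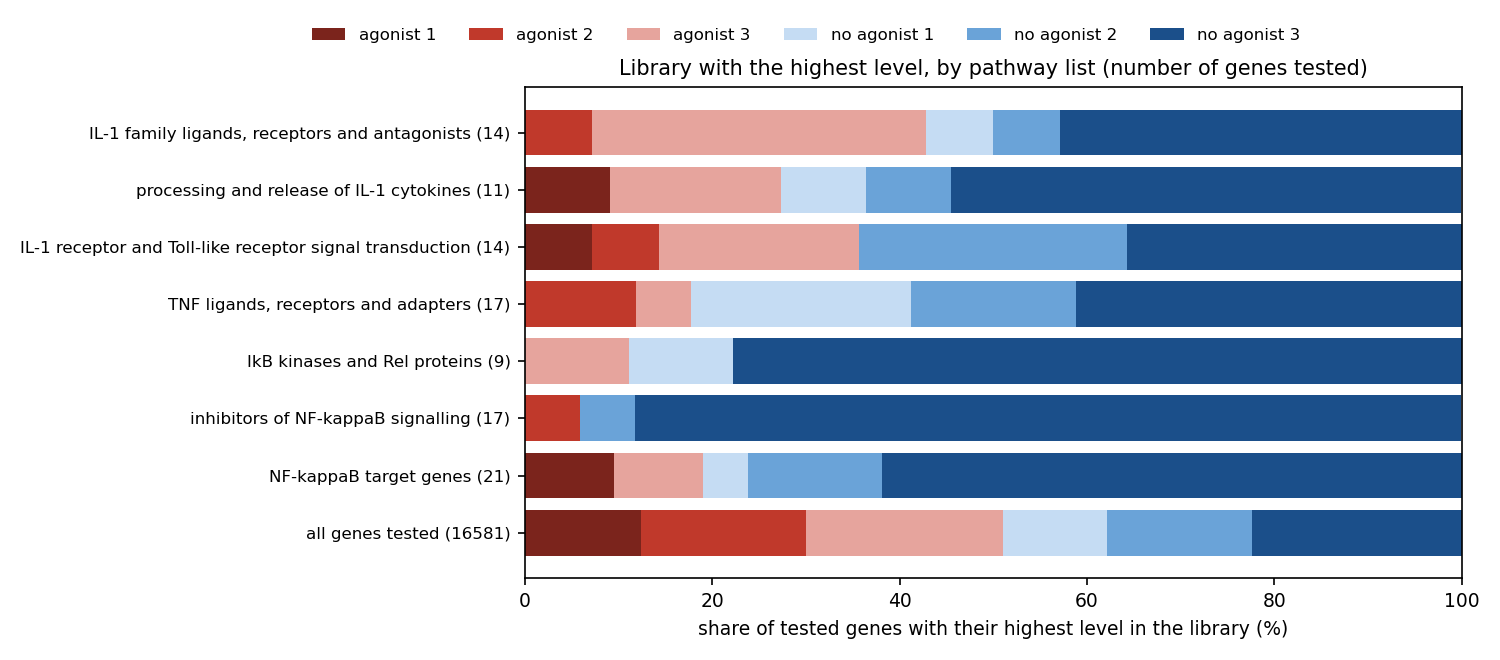
Share of the tested genes of each pathway list, and of all genes tested (bottom bar), whose highest level lies in each library (horizontal axis, percent, agonist libraries in red and no-agonist libraries in blue). The dark blue share of no-agonist library 3 is 88.2% for the inhibitors of NF-kappaB signalling and 22.4% for all genes.

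Of 11 tested IL-1 processing and release genes, 0 were higher (4.17% of all genes) and 1 lower (5.09%) at an unadjusted p under 0.05. This was Aim2, a sensor of DNA in the cytoplasm, at 3.21, 4.21 and 2.39 CPM with the agonist, against 20.5, 8.27 and 5.14 CPM without it (log2 fold change -1.79, adjusted p = 0.397). Aim2 was highest in no-agonist library 1, not in library 3. The inflammasome adapter Pycard averaged 132 ± 24.6 and 179.8 ± 26.0 CPM, and the protease Casp8 50.4 ± 7.92 and 69.5 ± 12.4 CPM (agonist and no agonist, SD, n = 3 each). The calpain Capn1 averaged 172 ± 2.38 and 136 ± 9.33 CPM, with higher values in all 3 agonist libraries (adjusted p = 0.609).

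Of the 14 genes that carry the signal from the IL-1 and Toll-like receptors, 0 were higher (4.17% of all genes) and 2 were lower (5.09%) at an unadjusted p under 0.05. The kinase Irak4, which starts the signal at the receptor, measured 26.0, 20.9 and 14.9 CPM with the agonist, against 33.1, 36.6 and 42.2 CPM without it (log2 fold change -0.86, adjusted p = 0.364). The adapter Myd88, which recruits it, measured 63.1, 65.1 and 60.02 CPM, against 81.8, 81.4 and 90.7 CPM (log2 fold change -0.43, adjusted p = 0.487). The inhibitory adapter Tollip averaged 52.2 ± 2.42 and 64.1 ± 2.22 CPM, and Tab1, a subunit of the kinase complex downstream, 57.7 ± 3.92 and 70.3 ± 12.1 CPM (agonist and no agonist, SD, n = 3 each). The groups did not overlap for Irak4, Myd88 and Tollip, all lower (21.4% of the list, against 7.61% of all genes). With library totals in place of TMM factors the Tollip groups overlapped. Its log2 fold change was then -0.13 ± 0.17 (SE), against -0.30 ± 0.16. Thus Il1r1 lay higher with the agonist while Myd88 and Irak4 lay lower, none of them past the adjusted threshold.

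Of 17 genes tested in the TNF arm, 0 were higher (4.17% of all genes) and 2 lower (5.09%) at an unadjusted p under 0.05. Tnfrsf1b, the TNF receptor of immune cells and endothelium, measured 28.6, 20.2 and 12.2 CPM with the agonist, against 43.3, 30.5 and 61.4 CPM without it (log2 fold change -1.15, adjusted p = 0.406). The death-domain adapter Tradd averaged 34.8 ± 6.05 and 50.8 ± 8.59 CPM (agonist and no agonist, SD, n = 3 each; adjusted p = 0.513), also without overlap. The NF-kappaB-induced ubiquitin ligase Birc3 measured 26.9, 20.2 and 21.7 CPM, against 26.3, 28.2 and 64.6 CPM, with a log2 fold change of -0.79 that became -0.25 ± 0.23 (SE) without no-agonist library 3. Lymphotoxin beta, Ltb, went the other way, with 8.42, 10.6 and 6.69 CPM with the agonist, against 2.42, 2.35 and 8.91 CPM without it (log2 fold change 0.92, adjusted p = 0.684, and 1.85 ± 0.42 SE without no-agonist library 3).

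Of the 9 kinases and Rel proteins, 0 were higher (4.17% of all genes) and 0 lower (5.09%) at an unadjusted p under 0.05. Map3k14, the kinase of the alternative pathway, averaged 20.8 ± 6.80 and 29.3 ± 2.16 CPM, and its substrate Nfkb2 36.8 ± 9.39 and 51.6 ± 13.7 CPM (agonist and no agonist, SD, n = 3 each). The kinase Chuk averaged 25.2 ± 1.40 and 30.2 ± 1.01 CPM, and the subunit Rel 1.35 ± 0.155 and 2.17 ± 0.611 CPM, both without overlap and with adjusted p = 0.723 and 0.679. With library totals in place of TMM factors the Chuk groups overlapped, and its log2 fold change was -0.09 ± 0.20 (SE), against -0.26 ± 0.18.

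Among the 7 lists, the inhibitors of NF-kappaB signalling had the largest share of genes at their highest in no-agonist library 3. Of the 17 tested, 15 had it there (88.2%, against 22.4% of all genes). With the agonist, 0 were higher (4.17% of all genes) and 3 were lower (5.09%) at an unadjusted p under 0.05. Of these 3, 2 were Nfkbia and Tnfaip3. The third was Tnip3, which encodes a partner of A20, at 2.09, 0.475 and 0.0769 CPM with the agonist, against 4.15, 4.35 and 60.3 CPM without it. Tnip3 had 26, 7 and 1 reads with the agonist, against 55, 50 and 657 reads without it. It thus passed the filter on low counts through the no-agonist libraries, and its fold rests on few agonist reads. Its log2 fold change was -4.71 (adjusted p = 0.369, 0.0418 with the likelihood ratio test and 0.515 with limma-voom). DESeq2 gave no adjusted p for it. Without no-agonist library 3, which held 657 of its 796 reads, the log2 fold change was -2.27 ± 1.00 (SE). The RNA-cutting feedback regulator Zc3h12a measured 19.9, 10.6 and 6.92 CPM, against 14.9, 16.1 and 83.5 CPM, with a log2 fold change of -1.61 that became -0.31 ± 0.46 (SE) without that library. The deubiquitinase Cyld averaged 39.3 ± 3.03 and 50.1 ± 7.38 CPM, and Tnip2 33.4 ± 7.38 and 42.9 ± 4.16 CPM (agonist and no agonist, SD, n = 3 each). All 8 smooth muscle markers were also highest in no-agonist library 3, while of the 11 macrophage markers 3 were highest there and 7 in no-agonist library 1. Their part in these levels was not tested.

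Of the NF-kappaB target genes, 13 of the 21 tested were highest in no-agonist library 3 (61.9%, against 22.4% of all genes). With the agonist, 0 were higher (4.17% of all genes) and 2 were lower (5.09%) at an unadjusted p under 0.05. These were Lcn2, a secreted iron-binding defence protein, and the urokinase gene Plau. Lcn2 measured 2195, 1066 and 378 CPM with the agonist, against 2793, 4552 and 6010 CPM without it (log2 fold change -1.88, adjusted p = 0.422, and 0.0378 with DESeq2). Plau measured 19.3, 12.0 and 5.77 CPM, against 26.3, 42.6 and 25.9 CPM (log2 fold change -1.36, adjusted p = 0.406). Both genes were lower in all 3 agonist libraries, and Plau was not highest in no-agonist library 3. The granulocyte growth factor Csf3 measured 59.1, 27.4 and 35.2 CPM, against 47.6, 58.5 and 114 CPM. The chemokine Ccl5 averaged 1.98 ± 1.56 and 0.799 ± 0.295 CPM (agonist and no agonist, SD, n = 3 each; adjusted p = 0.618).

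**Figure D4:**
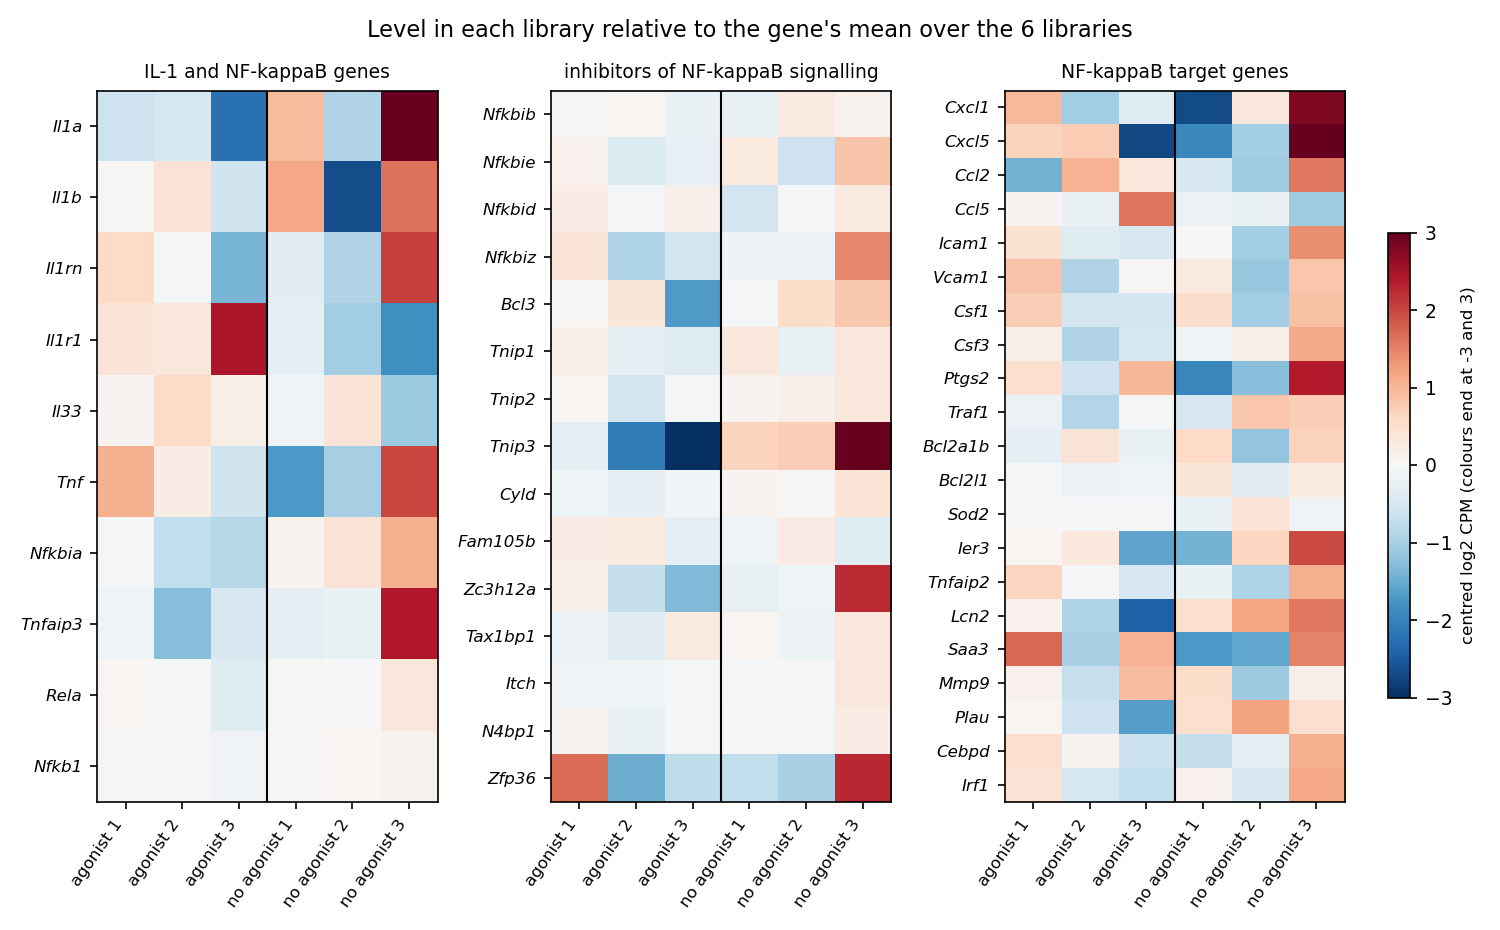
Centred log2 CPM (colour, each gene minus its mean over the 6 libraries) in the agonist libraries (left of the black line) and the no-agonist libraries (right) for the 10 genes, the other tested inhibitors of NF-kappaB signalling and the tested NF-kappaB target genes. The column of no-agonist library 3 is red for most genes. It is blue for Il1r1 and Il33 of the 10 genes, and for Ccl5, Fam105b and Sod2 of the others.

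Genes with the most similar pattern over the 6 libraries were sought for the 4 genes with the largest spread, by the root mean square difference of centred log2 CPM. Near to Il1a were Apol11a and Ank1, with differences of 0.57 and 0.76. Apol11a measured 4.33, 3.06 and 0.769 CPM with the agonist, against 7.02, 5.05 and 29.1 CPM without it. Nearest to Il1b were Ms4a6c, Emr1 and Ly86 (0.39 to 0.47). Emr1, which is also on the macrophage list, measured 8.34, 9.37 and 8.00 CPM with the agonist, against 20.0, 1.91 and 18.4 CPM without it. Both Il1b and Emr1 were thus lowest in no-agonist library 2 and high in the other no-agonist libraries. Nearest to Il1r1 were BC048546, Klf12 and Gas2l3 (0.26 to 0.28). Gas2l3 measured 23.9, 24.5 and 96.2 CPM with the agonist, against 10.9, 6.09 and 3.21 CPM without it, highest in agonist library 3 and lowest in no-agonist library 3, as Il1r1 was. Nearest to Tnf were H2-T22, Postn and LOC102635361 (0.36 to 0.42). H2-T22 measured 44.0, 40.9 and 16.6 CPM, against 13.1, 13.8 and 147 CPM, and its reads can be shared with near-identical genes of its family.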

How the data were processed

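Total RNA of scraped endometrium was read as single ends by Ion Proton sequencing, per the labels' protocols. The authors deposited whole-number read counts per gene symbol, counted with HTSeq 0.6.1 on mm10 (GRCm38), per the submitters' processing notes. The sources used here do not give the aligner, annotation or strand setting, and no normalization of the deposited counts is recorded. All 6 columns were mapped by sample title.

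R 4.3.3 was used with DESeq2 1.42.0, limma 3.58.1 and edgeR 4.0.16. Genes were kept by filterByExpr, scaled by TMM factors and compared by edgeR's quasi-likelihood test with Benjamini-Hochberg adjustment over 16581 genes. The script was tested on simulated data with less spread between libraries than these, so that test does not show its power here. Levels are CPM on TMM-scaled library sizes, folds are agonist over no agonist, and log2 CPM for patterns used a prior count of 2. The precision is set by totals of 11720958 to 14104266 counts, and floors of 3 counts cover counting error only. Exon lengths and positions are from GENCODE M21 (GRCm38).

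All 10 genes are described. From each pathway list up to 4 others with the smallest p and a mean of at least 1 CPM are named, and for the patterns the 3 nearest genes with a mean of at least 5 CPM, of which 1 is not reported here. Further family receptors, Il1f9 and the markers were chosen after their values were seen. The genes and lists were chosen with earlier results of these data known. Alternatives were other tests, scalings, filters on low counts and leaving out each library.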

Additional observations from a re-analysis of the deposited data

How the results depend on the processing

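No paired analysis was possible because the labels share no replicate numbers between the groups. Against 0 genes called by edgeR's quasi-likelihood test, DESeq2 called 394, the likelihood ratio test 268, and the test without a filter on low counts 36. Of the 10 genes, DESeq2 and the likelihood ratio test each called 1, against 0. With 1 library left out, 0 to 1 of all genes and 0 of the 10 were called, 2 to 5 of the 10 lay at an unadjusted p under 0.05 against 3, and 3 to 6 had groups that did not overlap against 3. Without no-agonist library 2 these numbers were 5 and 6 (8.07% and 23.3% of all genes), and without agonist library 1, 5 did not overlap (29.2%), while 14.5% of all genes did not overlap with all 6 libraries. Il1a is among the 5 and 6 without no-agonist library 2, and in the unadjusted counts without agonist library 1 or 2. It was not tested with all 6 libraries and entered these tests through the no-agonist libraries where it was high. The pathway genes fitted lower, an alternative chosen after seeing the data, numbered 57 to 84 of 103 with 1 library left out, against 85. The log2 fold change changed sign for Il1b (0.014) and Tnf (0.65) with limma-voom and for Nfkb1 (0.022) with library totals. It also changed sign for Tnf without agonist library 3 (0.04) and without no-agonist library 3 (2.01), and for Il1rn without no-agonist library 3 (0.59). The cause was not tested. Left-out ranges were -1.55 to 0.59 for Il1rn and -0.86 to 2.01 for Tnf. Library totals moved the all-gene median to a log2 fold change of 0.18, against 0.02, and relative to that shift Nfkb1 stayed lower. Of the other log2 fold changes of named genes under the alternatives, 511 kept their direction and side of the threshold and 4 passed it with the same direction. Among the 511 is Tnip3 with DESeq2, which had no adjusted p and is counted by its direction alone. Genes with few reads, such as Il1a, are limited by depth.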

Other observations

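Several NF-kappaB target genes that had too few reads in most libraries to be tested were read mainly in no-agonist library 3. The chemokine gene Cxcl2 had 4, 1 and 0 reads with the agonist and 2, 0 and 110 reads without it. Nos2, the inducible nitric oxide synthase, had 8, 42 and 1 reads with the agonist and 8, 6 and 353 reads without it. Among tested genes, the RNA-destabilizing Zfp36 was high in a library of each group, at 214, 24.5 and 39.7 CPM with the agonist and 40.2, 34.2 and 325 CPM without it. Sod2, a mitochondrial antioxidant enzyme and NF-kappaB target, stayed between 46.0 and 69.7 CPM in all 6 libraries, and Il6 had 0 to 2 reads per library. These genes were picked after their values were seen, and no test is given for them.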
